A study of Caenorhabditis elegans with 9 samples.

Results

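The dhs genes of *Caenorhabditis elegans* are a set of named genes for short-chain dehydrogenases. Every probe set of the array whose annotation gave a single gene symbol made of dhs and a number was taken, which yielded 33 probe sets of 30 genes, among 17118 gene symbols that stood alone on a probe set. Where a gene had several probe sets (*dhs-3*, *dhs-4* and *dhs-28*), the one with the highest mean stood for it. Expression was measured in whole worms raised in mCeHR-2, a bacteria-free liquid medium, with 4, 20 or 500 uM hemin (the chloride of iron(III) protoporphyrin). Synchronized larvae of the F2 generation were put into these media and collected as late L4 larvae. Total RNA of 3 biological replicates per concentration (A, B and C) was hybridised to 1 Affymetrix array each. The 20 uM worms were the group to which the study compared the others, and the sources used here do not give the strain.

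Short-chain dehydrogenases are a large family of enzymes that use NAD or NADP to oxidise alcohols or to reduce ketones and aldehydes. Their substrates include sterols, fatty acid derivatives, sugars and carbonyl compounds. In *C. elegans* the family takes part in fat oxidation in peroxisomes, which also trims the fatty acid-like side chains of the ascaroside pheromones, in the synthesis of the steroid hormone dafachronic acid and in the protein coat of lipid droplets. The worm makes no heme of its own and takes it from the medium.

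The values were log2 expression levels on 1 scale for all arrays, and a difference of 1 means a factor of 2. All 30 dhs genes were bright enough to be tested, which required that a probe set was not among the dimmest 25% by its mean over the 9 arrays. Of the 30 genes 24 lay above the median probe set of the array (5.47), and their single array values ran from 3.60 to 10.42. The array of 4 uM replicate A stood apart from the rest. Its dhs values deviated from those of the other 4 uM arrays with an SD of 0.40, and the same SD was 0.10 to 0.26 for the other 8 arrays. Differences named below that moved by over 1.5 times without it, or gained or lost a call, are given both ways. The worms of the 3 media also differed in genes of yolk, sperm, oocytes and embryos, and the adult cuticle. The mean of 5 yolk protein genes was 7.17 to 8.0 on the 4 uM arrays, 5.56 to 6.51 at 20 uM and 4.66 to 5.85 at 500 uM. The mean of 43 sperm genes was 8.09 to 9.19, 7.82 to 8.09 and 7.06 to 7.61 in the same order. The mean of 8 oocyte and embryo genes was 7.58 to 7.97, 7.18 to 7.27 and 7.03 to 7.19, and the adult cuticle collagen *col-19* read 7.26 to 7.41, 4.45 to 5.74 and 4.25 to 5.33. The 4 uM arrays lay above all others in yolk, sperm, oocyte and embryo genes and *col-19*. For the sperm genes the gap was very narrow, with 8.092 as the lowest 4 uM mean and 8.091 as the highest 20 uM mean. Markers of the intestine (8 genes) were at 10.13 to 10.23, 10.13 to 10.29 and 10.14 to 10.30. RNA came from whole animals, so fewer cells of a type and less RNA per cell cannot be told apart. Whether the worms of the 3 media were at the same stage when collected was not tested.

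Between the lowest and the highest hemin, *dhs-28* rose and *dhs-7* fell, and no other dhs gene passed the test. These were 2 of 30 genes for 500 against 4 uM, at an adjusted p under 0.05 by limma with Benjamini-Hochberg adjustment over all 16911 probe sets tested, where 2.07% of all probe sets passed. Rises passed for 0.769% and falls for 1.3% of all probe sets. For 4 against 20 uM 0 of 30 genes passed, where 0.911% of all probe sets did (0.68% higher and 0.231% lower at 4 uM). For 500 against 20 uM 0 of 30 passed, where 0.242% of all did (0.154% higher and 0.0887% lower at 500 uM). A single test over the 3 groups called 0 of 30 genes at an adjusted p under 0.05, against 1.62% of all probe sets. Before adjustment 9 dhs genes had a limma p under 0.05 for 4 against 20 uM (8.7% of all), 4 for 500 against 20 uM (6.65%), 9 for 500 against 4 uM (11.9%) and 9 in the test over 3 groups (10.5%).

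Most differences among the dhs genes were small. The group means of 11 genes lay within 0.2 of each other, and those of 6 genes spanned more than 0.5. For 4 minus 20 uM the differences ran from -0.69 to 0.39 with a median of -0.08, against 0.02 over all probe sets tested, and 19 of 30 were below 0. For 500 minus 20 uM they ran from -0.52 to 0.33 with a median of -0.04 (0.01 over all), and for 500 minus 4 uM from -0.69 to 0.70 with a median of 0.06 (0.00047 over all). The median was -0.15 for 4 minus 20 uM and 0.11 for 500 minus 4 uM without 4 uM replicate A. The median size of a difference, whatever its sign, was 0.19 among the dhs genes and 0.10 among all probe sets for 4 against 20 uM, and 0.17 and 0.12 for 500 against 4 uM. The median standard error of these differences was 0.13.

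**Figure D1:**
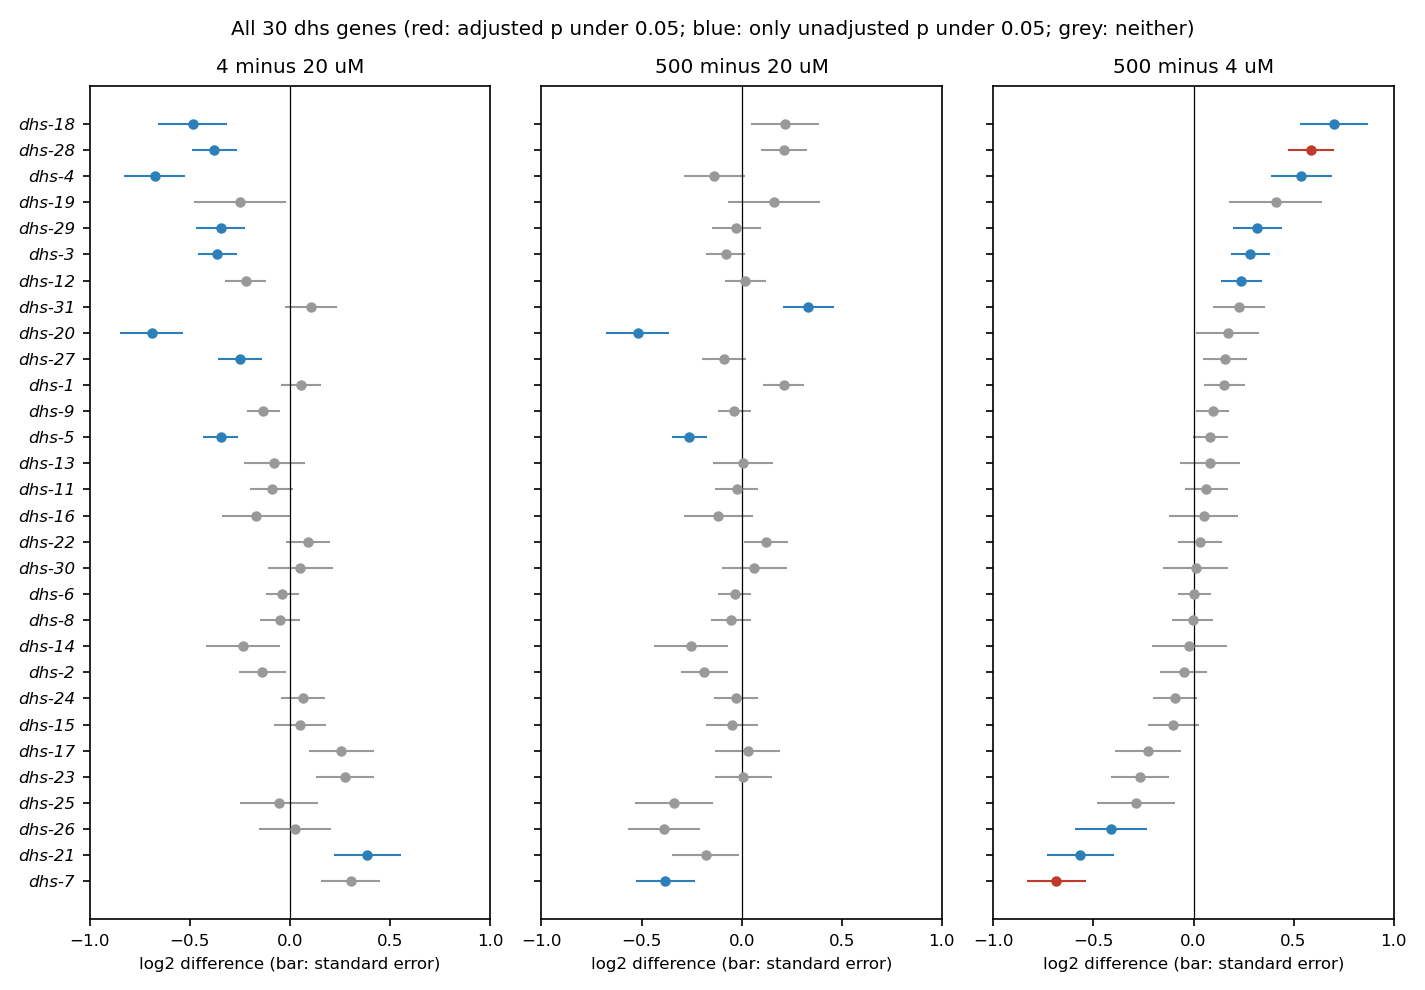
Log2 difference (x axis) of all 30 dhs genes for 4 minus 20, 500 minus 20 and 500 minus 4 uM hemin, with bars for limma's standard error and genes ordered by their 500 minus 4 uM value. The red points, *dhs-28* at 0.59 and *dhs-7* at -0.69, passed the adjusted threshold, and both lie in the panel of 500 minus 4 uM.

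The gene *dhs-28* (M03A8.1) encodes the 3-hydroxyacyl-CoA dehydrogenase of peroxisomal beta-oxidation, the third step of the cycle that shortens ascaroside side chains. Its log2 level was 9.49, 9.80 and 9.93 at 4 uM hemin (replicates A, B and C), 10.08, 10.21 and 10.06 at 20 uM, and 10.24, 10.42 and 10.32 at 500 uM. All 3 groups were apart, with every 4 uM array below every 20 uM array and every 500 uM array above both. Groups fully apart in this order were found in 1 of 30 dhs genes and in 0.39% of all probe sets. The mean rose from 9.74 ± 0.23 (SD, n = 3 arrays) at 4 uM to 10.33 ± 0.09 at 500 uM, by 0.59 (SE 0.11), or 1.5-fold, with a limma adjusted p of 0.0297. Neither step alone passed: 4 minus 20 uM was -0.38 (SE 0.11, limma adjusted p = 0.273) and 500 minus 20 uM was 0.21 (SE 0.11, limma adjusted p = 0.819).

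The call of *dhs-28* was close to the threshold. It was made in 11 of 19 alternative fits, and in 2 of 9 fits without 1 array, those without 4 uM replicate A or without 4 uM replicate C. The rise without 4 uM replicate A was 0.46 with an adjusted p of 0.0244. Without 500 uM replicate B the adjusted p was 0.140, the highest of all alternatives, and the difference stayed above 0 in each of them, at 0.40 to 0.68. A second, dimmer probe set of *dhs-28* differed by 0.21 (SE 0.09) for 500 minus 4 uM, with a limma adjusted p of 0.419. On that probe set also every 500 uM array was above every 4 uM array, but the 500 and 20 uM arrays overlapped.

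**Figure D2:**
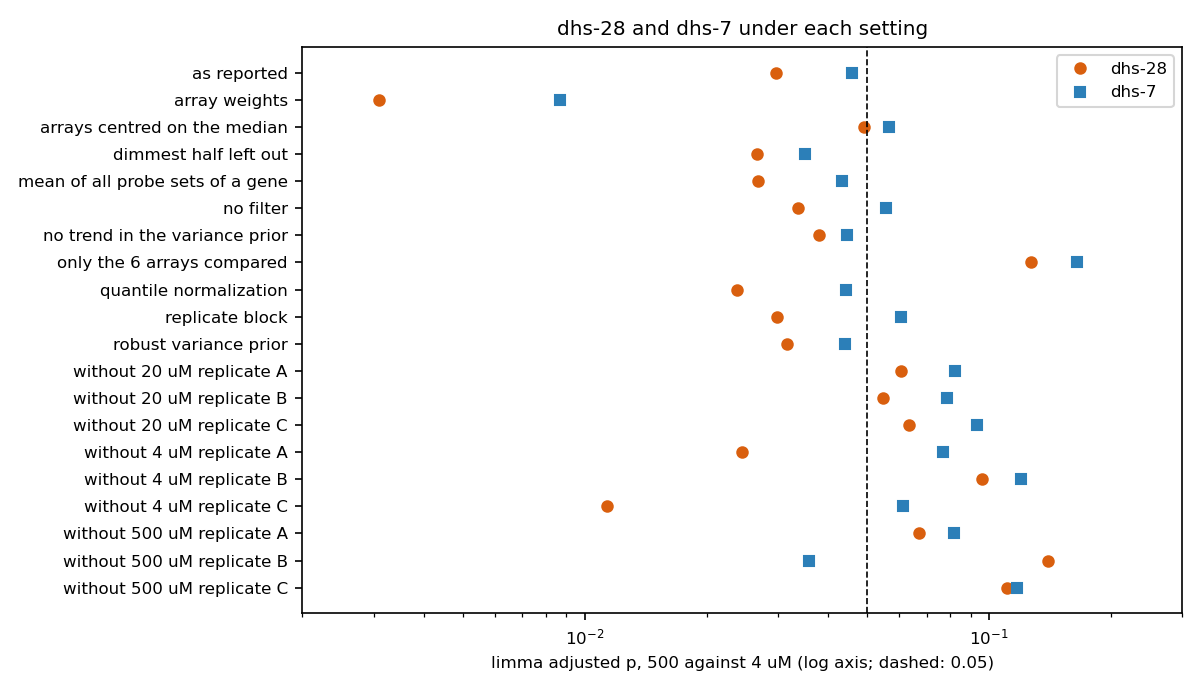
Limma adjusted p for 500 against 4 uM hemin (x axis, log scale, dashed line at 0.05) of *dhs-28* (circles) and *dhs-7* (squares) in the reported fit and in 19 alternatives. The points left of the line are the fits that call the gene, 11 alternatives for *dhs-28* and 7 for *dhs-7*.

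Other genes of peroxisomal beta-oxidation were examined beside *dhs-28*. Most encode enzymes of the cycle, while *prx-5* and *prx-10* do not. Of 10 listed genes, *dhs-28* included, 3 rose at 500 against 4 uM hemin, where 0.769% of all probe sets rose. In the list 0 fell (1.3% of all) and 7 did not pass. The median difference of the list was 0.41, or 0.31 without 4 uM replicate A, against 0.00047 over all probe sets. Apart from *dhs-28*, 2 of 9 genes rose, and the median of the 9 was 0.39. In these 9 of 9 genes had a difference above 0, as did 50.1% of all probe sets. These differences share the same arrays, and the list was chosen with earlier results of these data known. The acyl-CoA oxidases catalyse the first step. For *acox-1.5* the log2 level was 8.74, 9.45 and 9.59 at 4 uM, 9.71, 9.79 and 9.73 at 20 uM, and 10.44, 10.52 and 10.14 at 500 uM. The 3 groups did not overlap, and the lowest value was that of 4 uM replicate A. The rise from 4 to 500 uM was 1.1 (SE 0.20, limma adjusted p = 0.0194), and 0.84 without 4 uM replicate A (limma adjusted p = 0.0031).

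For *acox-3* the level was 8.04, 8.27 and 8.56 at 4 uM, 8.53, 8.46 and 8.55 at 20 uM, and 9.03, 9.04 and 8.92 at 500 uM. Its 4 and 20 uM arrays overlapped and its 500 uM arrays lay above both groups. The rise from 4 to 500 uM was 0.71 (SE 0.12, limma adjusted p = 0.0187). The thiolase gene *daf-22*, the last step, differed by 0.43 (SE 0.13, limma adjusted p = 0.210), and *maoc-1*, the hydratase before *dhs-28*, by 0.25 (SE 0.09, limma adjusted p = 0.305). The calls of *acox-1.5* and *acox-3* depended on single arrays. *acox-1.5* did not pass without 500 uM replicate A or B. *acox-3* did not pass without 4 uM replicate B or any 1 of the 500 uM arrays. Neither passed in a fit of only the 6 arrays at 4 and 500 uM. That fit gave the highest limma adjusted p over all alternatives, 0.101 for *acox-1.5* and 0.0995 for *acox-3*. For 4 against 20 uM and for 500 against 20 uM 0 of 10 genes of the list passed in limma. Without 4 uM replicate A *acox-1.5* and *acox-3* passed for 500 against 20 uM, with adjusted p of 0.0209 and 0.0402.

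**Figure D3:**
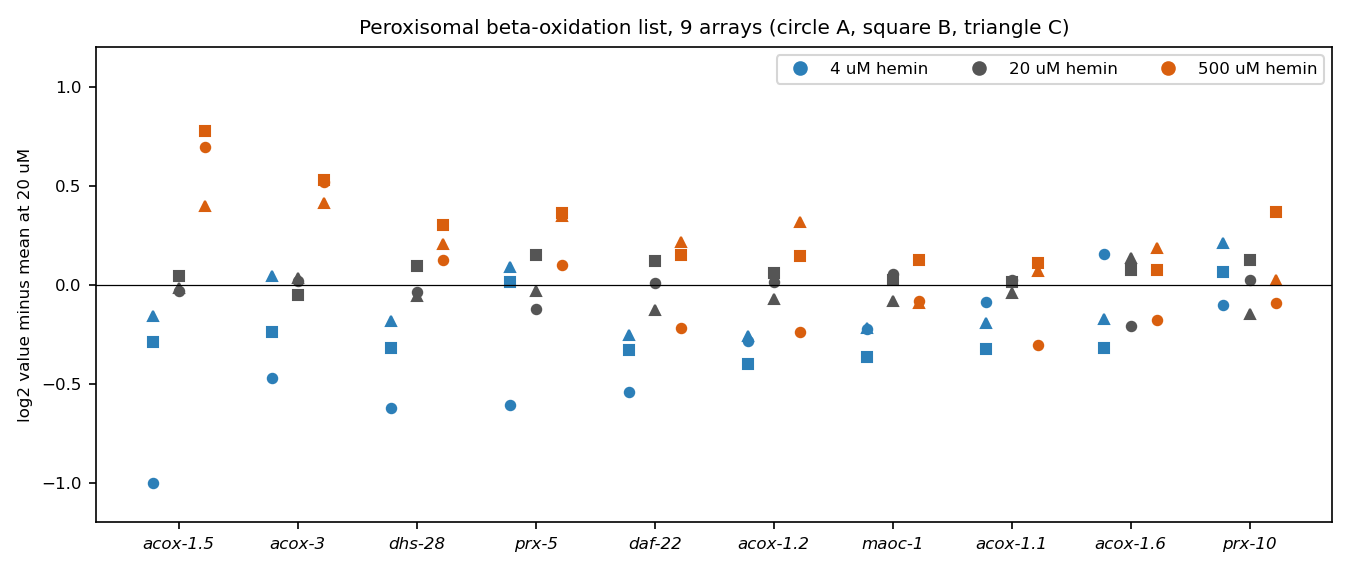
Log2 value minus the gene's mean at 20 uM hemin (y axis) for 10 genes of the peroxisomal beta-oxidation list on 9 arrays, ordered by the difference between 500 and 4 uM. The 500 uM points of *acox-1.5*, *acox-3* and *dhs-28* lie above all their 4 uM points. The same holds for *acox-1.2*, *daf-22*, *maoc-1* and *prx-5*, which did not pass. 4 uM replicate A (blue circles) is the lowest point of *acox-1.5*, *acox-3*, *dhs-28*, *prx-5* and *daf-22*.

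The product of *dhs-3* (T02E1.5) is an abundant lipid droplet protein of the intestine. Its level was 7.87, 7.78 and 7.90 at 4 uM, 8.07, 8.28 and 8.29 at 20 uM, and 8.03, 8.17 and 8.20 at 500 uM. The 4 uM arrays were below all others, while the 20 and 500 uM arrays overlapped. The difference for 4 minus 20 uM was -0.36 (SE 0.10, limma adjusted p = 0.192), and for 500 minus 4 uM it was 0.28 (SE 0.10, limma adjusted p = 0.261). A second, dimmer probe set of *dhs-3* gave -0.43 (SE 0.20, limma adjusted p = 0.594) for 4 minus 20 uM.

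The gene *dhs-19* (T11F9.11) was listed with *dhs-3* among lipid droplet and fat storage genes. Its level was 6.96, 7.84 and 7.93 at 4 uM, 7.90, 7.84 and 7.74 at 20 uM, and 7.85, 8.25 and 7.85 at 500 uM. The value of 4 uM replicate A was below the other 8, which overlapped between groups. For 500 minus 4 uM the difference was 0.41 (SE 0.23, limma adjusted p = 0.5), and 0.10 without that array (limma adjusted p = 0.871). Its 4 minus 20 uM difference changed from -0.25 with the array to 0.06 without it.

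For 500 against 4 uM, 1 of 11 measured genes of the lipid droplet and fat storage list rose (0.769% of all probe sets). In that list 1 fell (1.3% of all) and 9 did not pass, and its median was 0.16, or 0.10 without 4 uM replicate A. The riser was *fat-5*, a desaturase of palmitoyl-CoA, by 0.86 (SE 0.10, limma adjusted p = 0.0019), and it passed in 19 of 19 alternatives. The gene that fell was *dgat-2*, a diacylglycerol acyltransferase, by 0.46 (SE 0.10, limma adjusted p = 0.0404), and it passed in 8 of 19. With the mean of all its probe sets the difference of *dgat-2* was -0.22 (limma adjusted p = 0.231). For 4 against 20 uM and for 500 against 20 uM 0 of 11 passed. Without 4 uM replicate A *fat-5* was lower at 4 than at 20 uM by 0.59 on the log2 scale (log2 difference -0.59, limma adjusted p = 0.0098), and *dgat-2* no longer passed for 500 against 4 uM (limma adjusted p = 0.0704).

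Dafachronic acid, the steroid ligand of the nuclear receptor DAF-12, is made with the help of *dhs-16* (C10F3.2), a 3-beta-hydroxysteroid dehydrogenase. Its level was 6.31, 5.55 and 5.78 at 4 uM, 6.19, 6.08 and 5.87 at 20 uM, and 5.94, 5.91 and 5.95 at 500 uM. The 4 uM arrays held both its highest and its lowest value, and all groups overlapped. The differences were -0.17, -0.12 and 0.05 for 4 minus 20, 500 minus 20 and 500 minus 4 uM (SE 0.17 each), with limma adjusted p of 0.829, 0.980 and 0.923. Without 4 uM replicate A the first was -0.38 (limma adjusted p = 0.170) and the last 0.26 (limma adjusted p = 0.444), and without 4 uM replicate B they were -0.003 and -0.11. Of 7 genes of the dafachronic acid list that were bright enough to be tested, *dhs-16* included, 0 passed in any of the 3 comparisons. The medians of the 7 were -0.17, 0.01 and 0.10 for the same comparisons, and without 4 uM replicate A -0.02 for 4 minus 20 uM and 0.14 for 500 minus 4 uM. Among these genes *daf-9*, the cytochrome P450 of the last step, differed by 0.45 (SE 0.20, limma adjusted p = 0.411) for 500 minus 4 uM. This was 0.23 without 4 uM replicate A (limma adjusted p = 0.709), and 0.71 without 4 uM replicate C, where it passed (limma adjusted p = 0.0138). The difference of *daf-36*, the oxygenase of the first step, was 0.30 (SE 0.13, limma adjusted p = 0.409).

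The gene *dhs-21* (R11D1.11) encodes a reductase of dicarbonyl compounds and L-xylulose. Its level was 8.76, 9.09 and 9.49 at 4 uM, 8.83, 8.60 and 8.75 at 20 uM, and 8.49, 8.72 and 8.44 at 500 uM. The 500 uM arrays lay below the 4 uM arrays, and the 20 uM arrays overlapped both groups. The 4 uM arrays spread the most, with an SD of 0.36 against 0.12 and 0.15. For 500 minus 4 uM the difference was -0.57 (SE 0.17, limma adjusted p = 0.176), and -0.74 without 4 uM replicate A (limma adjusted p = 0.0211). It was the one dhs gene other than *dhs-28* that passed this comparison in that fit.

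The other gene that passed in the reported fit was *dhs-7* (E04F6.7). Its level was 6.58, 6.45 and 6.54 at 4 uM, 6.13, 6.34 and 6.19 at 20 uM, and 5.49, 6.11 and 5.92 at 500 uM. The 3 groups were apart in the direction opposite to *dhs-28*, with 4 uM highest and 500 uM lowest. Groups fully apart in this order occurred in 1 of 30 dhs genes and in 0.532% of all probe sets. From 4 to 500 uM the mean fell from 6.52 ± 0.06 to 5.84 ± 0.31 (SD, n = 3 arrays each), a log2 difference of -0.69 (SE 0.15, limma adjusted p = 0.0457), which left 0.622 of the level at 4 uM. The lowest array was 500 uM replicate A, and without it the difference was -0.51 (limma adjusted p = 0.0817). Leaving out 4 uM replicate A gave -0.66 (limma adjusted p = 0.0770). The call was made in 7 of 19 alternatives and in 1 of 9 fits without 1 array, the one without 500 uM replicate B, and the difference stayed below 0 in all of them. The yolk, sperm, and oocyte and embryo markers also were lower at 500 than at 4 uM, as was *col-19* (log2 difference -2.50). In the first 3 sets 5 of 5, 28 of 40 and 5 of 8 tested genes passed as lower, against 1.3% of all probe sets. The part of these markers in the fall of *dhs-7* was not tested. For 500 against 4 uM intestinal markers passed in 0 of 8 cases, and those of hypodermis, body wall muscle and neurons in 0 of 2, 0 of 3 and 0 of 3. Without 4 uM replicate A 1 intestinal marker passed there as higher. For 4 against 20 uM 1 of 8 intestinal markers passed as lower, and without 4 uM replicate A so did 1 hypodermis marker.

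**Figure D4:**
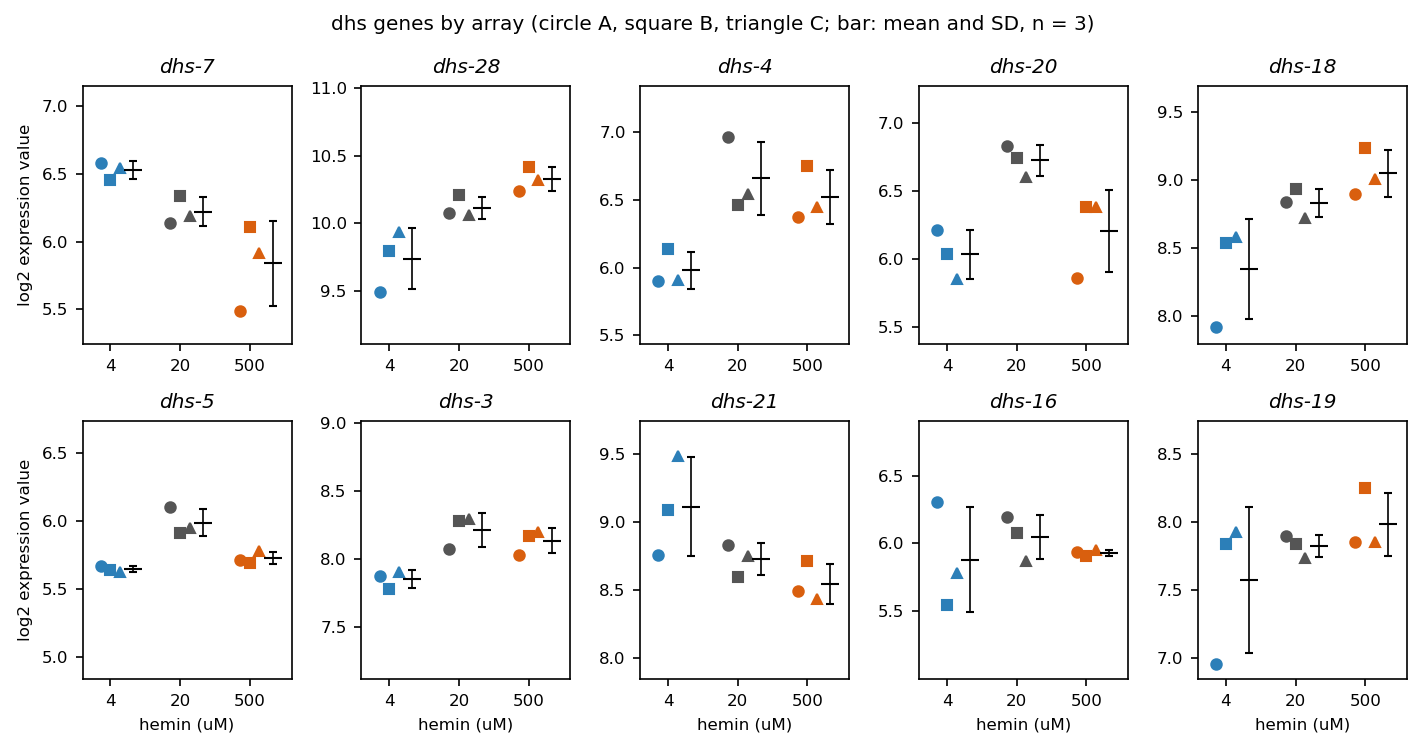
Log2 expression value (y axis) of 10 dhs genes on each of the 9 arrays by hemin concentration (x axis, uM), with circles, squares and triangles for replicates A, B and C, and bars for the mean and SD of 3 arrays. *dhs-7* steps down and *dhs-28* steps up without overlap between the groups, *dhs-20* and *dhs-5* are highest at 20 uM, and *dhs-19* has 1 low array at 4 uM.

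For 4 against 20 uM the groups were apart in 9 dhs genes, against 13.4% of all probe sets, although 0 passed after adjustment. In 8 genes (*dhs-3*, *dhs-4*, *dhs-5*, *dhs-9*, *dhs-18*, *dhs-20*, *dhs-28* and *dhs-29*) every 4 uM array was below every 20 uM array, and 6.23% of all probe sets had this pattern. The reverse held for 1 gene, *dhs-7*, and for 7.13% of all probe sets. Without 4 uM replicate A, where fewer arrays must be apart, the numbers were 14 dhs genes lower (15.4% of all) and 3 higher (12.3%). At an unadjusted p under 0.05 limma counted 8 dhs genes lower at 4 uM (3.72% of all probe sets) and 1 higher (4.98%). Without 4 uM replicate A these counts were 10 and 1, while the share of all probe sets in both directions went from 8.7% to 11.5%. *dhs-29* read 7.61, 7.98 and 7.87 at 4 uM, 8.18, 8.23 and 8.09 at 20 uM, and 8.01, 8.33 and 8.09 at 500 uM, and its 4 minus 20 uM difference was -0.35 (SE 0.12, limma adjusted p = 0.388). That of *dhs-9* was the smallest of the 8, at -0.13 (SE 0.08, limma adjusted p = 0.703).

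Among these, *dhs-20* (F35B12.2) had the largest difference. Its level was 6.22, 6.04 and 5.86 at 4 uM, 6.83, 6.75 and 6.61 at 20 uM, and 5.86, 6.38 and 6.38 at 500 uM. Every 20 uM array was above all arrays of the other groups, which overlapped each other. The difference for 4 minus 20 uM was -0.69 (SE 0.16, limma adjusted p = 0.103), and for 500 minus 20 uM it was -0.52 (SE 0.16, limma adjusted p = 0.426). Both differences use the same 20 uM arrays. Without 4 uM replicate A the first was -0.78 (limma adjusted p = 0.0436), and without 500 uM replicate A it passed as well (limma adjusted p = 0.0366).

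The gene *dhs-4* (T05F1.10) had 2 probe sets with the same pattern. On the brighter one its level was 5.90, 6.14 and 5.91 at 4 uM, 6.96, 6.46 and 6.54 at 20 uM, and 6.37, 6.75 and 6.45 at 500 uM. All 4 uM arrays were below all others, and the 20 and 500 uM arrays overlapped. The difference for 4 minus 20 uM was -0.68 (SE 0.15, limma adjusted p = 0.106) on this probe set and -0.60 (SE 0.15, limma adjusted p = 0.139) on the other. For 500 minus 4 uM the values were 0.54 (SE 0.15, limma adjusted p = 0.157) and 0.56 (SE 0.15, limma adjusted p = 0.108).

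The level of *dhs-5* (F56D1.5) was 5.67, 5.64 and 5.62 at 4 uM, 6.10, 5.91 and 5.95 at 20 uM, and 5.71, 5.69 and 5.78 at 500 uM. It was highest at 20 uM, and all 3 groups were apart, with the 500 uM arrays just above the 4 uM arrays. The difference was -0.34 (SE 0.09, limma adjusted p = 0.162) for 4 minus 20 uM and -0.26 (SE 0.09, limma adjusted p = 0.511) for 500 minus 20 uM.

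The level of *dhs-18* (C45B11.3) was 7.92, 8.53 and 8.58 at 4 uM, 8.84, 8.93 and 8.72 at 20 uM, and 8.90, 9.24 and 9.01 at 500 uM. The 4 uM arrays were below all others, with replicate A lowest, and the 20 and 500 uM arrays overlapped. Its difference for 500 minus 4 uM, 0.70 (SE 0.17, limma adjusted p = 0.0807), was the highest among the dhs genes but missed the threshold. It was 0.49 without 4 uM replicate A (limma adjusted p = 0.0614) and 0.82 without 4 uM replicate C (limma adjusted p = 0.0342). For 4 minus 20 uM it was -0.49 (SE 0.17, limma adjusted p = 0.387), and -0.27 without 4 uM replicate A (limma adjusted p = 0.375).

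At 500 against 20 uM the groups were apart in 7 dhs genes, against 16.8% of all probe sets, with 3 of the 7 higher at 500 uM (9.04% of all probe sets) and 4 lower (7.78%). Higher were *dhs-22*, *dhs-28* and *dhs-31*. The largest of these differences was that of *dhs-31*, with 4.62, 4.53 and 4.47 at 20 uM and 4.97, 4.97 and 4.68 at 500 uM. It came to 0.33 (SE 0.13, limma adjusted p = 0.635). Lower were *dhs-5*, *dhs-7*, *dhs-20* and *dhs-26*, with log2 differences of -0.26, -0.38, -0.52 and -0.39, with limma adjusted p of 0.511, 0.635, 0.426 and 0.764. Without 500 uM replicate A the difference of *dhs-7* was -0.21 (limma adjusted p = 0.805) and that of *dhs-20* -0.34 (limma adjusted p = 0.701). At an unadjusted p under 0.05 limma counted 1 dhs gene higher at 500 uM (*dhs-31*, 4.01% of all probe sets) and 3 lower (*dhs-5*, *dhs-7* and *dhs-20*, 2.64%).

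At 500 against 4 uM the groups were apart in 10 dhs genes, against 14.6% of all probe sets. At an unadjusted p under 0.05 limma counted 6 dhs genes higher at 500 uM (5.75% of all probe sets) and 3 lower (6.17%). Higher at 500 uM were 7 (*dhs-3*, *dhs-4*, *dhs-5*, *dhs-12*, *dhs-18*, *dhs-28* and *dhs-29*), against 7.88% of all probe sets. Lower were *dhs-7*, *dhs-21* and *dhs-26*, against 6.69%. When 4 uM replicate A was left out, 11 were higher (14.4% of all) and 3 lower (9.26%). Of these, *dhs-12* differed by 0.24 (SE 0.10, limma adjusted p = 0.398) and *dhs-29* by 0.32 (SE 0.12, limma adjusted p = 0.331). *dhs-26*, a dim gene, read 5.01, 4.33 and 4.21 at 4 uM, 4.45, 4.61 and 4.43 at 20 uM, and 4.16, 4.11 and 4.06 at 500 uM. Its 500 uM arrays were below all others, and its highest value was that of 4 uM replicate A. The difference for 500 minus 4 uM was -0.41 (SE 0.18, limma adjusted p = 0.404), and -0.17 without 4 uM replicate A (limma adjusted p = 0.586).

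Set in order of their group means, 14 of 30 dhs genes were highest at 20 uM, compared with 24.5% of all probe sets, and 15 were lowest at 4 uM (34.8% of all). The most frequent order, 4 below 500 below 20 uM, held for 10 genes, or 33.3%, against 13.7% of all probe sets. This order, without 4 uM replicate A, held for 15 dhs genes (18.3% of all), 16 were highest at 20 uM (32.4%) and 21 were lowest at 4 uM (39%). The order 4 below 20 below 500 uM held for 5 dhs genes (21.1% of all probe sets), and the reverse order for 5 (21.8%). Many of these orders rest on differences within the spread of the arrays, as the group means of 11 of the 30 genes lay within 0.2.

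The flattest gene was *dhs-6* (C17G10.8), at 8.17 to 8.34 on the 4 uM arrays, 8.28 to 8.32 at 20 uM and 8.23 to 8.30 at 500 uM, with group means within 0.04. The group means of *dhs-8*, *dhs-13*, *dhs-11*, *dhs-24* and *dhs-30* spanned 0.05 to 0.09, and all their groups overlapped. Among them *dhs-8* and *dhs-24* were dim, with means over the 9 arrays of 3.76 and 3.97. The limit of the dimmest 25% was 3.75. The remaining genes with overlapping groups were *dhs-1*, *dhs-2*, *dhs-14*, *dhs-15*, *dhs-17*, *dhs-23*, *dhs-25* and *dhs-27*. Of these *dhs-25* had 1 low array, 500 uM replicate A at 7.95, against 8.59 to 8.97 on the other 8. The dim genes *dhs-17* and *dhs-23* read highest on 4 uM replicate A, at 5.38 and 4.55. For *dhs-17* the other 8 arrays read 4.64 to 4.74, and its 4 minus 20 uM difference went from 0.26 to 0.03 without that array.

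The dhs genes lay on all chromosomes, with 12 of 30 on chromosome V and 6 on X. The closest pair was *dhs-14* and *dhs-15*, with 1 protein-coding gene between them. *dhs-14* read 5.84 to 6.64 at 4 uM, 6.38 to 6.59 at 20 uM and 6.02 to 6.40 at 500 uM, and *dhs-15* 5.63 to 6.05, 5.70 to 5.82 and 5.52 to 5.86. Neither gene passed in limma in any comparison, and the groups of both overlapped. The next pair, *dhs-16* and *dhs-17*, had 7 protein-coding genes between them and 0 calls.

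Short-chain dehydrogenases and reductases under other names were set beside the dhs genes. Of 13 measured genes 9 were bright enough to be tested, and *hsd-2*, *stdh-2*, *stdh-3* and *stdh-4* were among the dimmest 25%. For 500 against 4 uM 1 of 9 rose (0.769% of all probe sets) and 8 did not pass, with a median of 0.13. The riser was *decr-1.1*, a 2,4-dienoyl-CoA reductase of fatty acid oxidation. Its level was 8.43, 8.47 and 8.64 at 4 uM, 8.83, 8.78 and 8.79 at 20 uM, and 8.91, 9.14 and 9.14 at 500 uM, with no overlap between the groups. The rise from 4 to 500 uM was 0.55 (SE 0.10, limma adjusted p = 0.0199). It did not pass without 4 uM replicate B, 500 uM replicate B or 500 uM replicate C. With only the 6 arrays at 4 and 500 uM it also did not pass (limma adjusted p = 0.102). For 4 against 20 uM 0 of 9 passed, with a median of -0.18 (-0.10 without 4 uM replicate A), and for 500 against 20 uM 0 of 9, with a median of 0.01. The largest 4 minus 20 uM difference was that of *stdh-1*, at -0.60 (SE 0.19, limma adjusted p = 0.318), and it was -0.34 without 4 uM replicate A (limma adjusted p = 0.216).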

How the data were processed

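The deposited table held log2 expression values of 22625 probe sets on 9 arrays, already normalized by the authors. MAS5 and RMA are named in the submitters' processing notes, without versions, and the sources used here do not say which of them made the table. Background handling of that step can compress differences of dim probe sets. The number of arrays limits the precision, and no detection call was used here.

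Groups and replicate letters came from the labels. After leaving out 77 control probe sets and the dimmest 25%, 16911 probe sets were fitted with limma 3.58.1 in R 4.3.3 (1 mean per concentration, all 9 arrays, 6 residual degrees of freedom, variance trend), with two-sided p-values adjusted by Benjamini-Hochberg per comparison at 0.05. Differences that share a group share its arrays. The fit was also run on simulated data with independent noise and no outlying array. Such data cannot show how stable the calls here are.

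Gene names came from the platform annotation. All 30 dhs genes matched RefSeq (WBcel235), used for names and neighbours only. The members, lists and tests were chosen with earlier results of these data known. Genes given in full were those called, the 8 with the smallest F-test p, and those with a known role; up to 4 genes of each list by p were named, and other genes by counts. Alternatives were quantile normalization, median centring, other dim filters and variance priors, a replicate block, array weights, fits of 6 arrays, probe set means and leaving out each array. Python 3.11.15, pandas 2.3.3 and matplotlib 3.10.9 served for summaries and plots.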

Additional observations from a re-analysis of the deposited data

How the results depend on the processing

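Over single genes, comparisons and alternatives, 2413 of 2483 differences kept their side of the threshold, 43 lost a call and 27 gained one. The count pools the dhs genes with named genes of the other lists. Most of these differences were not called in the reported fit and so had no call to lose. Where a dhs gene was called, the call was kept in 11 of 19 alternatives for *dhs-28* and in 7 for *dhs-7*. The sign changed in 85 of the 2483 differences, all with a reported size of at most 0.25, and 0 of these 85 were called in either fit. With array weights, which gave 4 uM replicate A a weight of 0.15, the called dhs genes numbered 7 (4 against 20 uM), 0 (500 against 20 uM), 4 (500 against 4 uM) and 8 (test over 3 groups), and probe sets called overall 899, 204 and 813 for the 3 comparisons and 1085 in the test over 3 groups. The weights did not converge fully. With only the 6 arrays compared, 85, 202 and 157 probe sets and 0 dhs genes were called. For 500 against 4 uM, 1 dhs gene (*dhs-28*) was called with median centring, with no filter and with the replicate block. The replicate block called 148, 31 and 321 probe sets. Samples sharing a letter deviated together in 4 of 9 pairs (correlations -0.15 to 0.29, limit 0.1). Pairs with different letters had correlations of -0.33 to 0.31. Whether the letters pair the samples cannot be told from these values, because deviations within a group depend on each other.

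Without 1 array, dhs calls ranged from 0 to 1 (4 against 20 uM), 0 to 2 (500 against 4 uM) and 0 to 2 (test over 3 groups), and stayed at 0 for 500 against 20 uM. Probe sets called ranged from 69 to 315, 8 to 182 and 165 to 681 for the 3 comparisons. The cause of these changes was not tested.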
